A study of Mus musculus with 6 samples.

Results

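Wild-type mouse macrophages that had received lipopolysaccharide (LPS) were compared with wild-type macrophages kept in medium, with 1 Affymetrix expression array for each condition, so that the comparison used 2 of the 6 arrays of the series. The other 4 arrays were LPS-treated macrophages of a Trib1 line of mice, 2 labelled wild type and 2 labelled Trib1 knockout. The 2 arrays of that line labelled wild type, Trib1 #1 and Trib1 #2, were used to count which changes against medium were seen again and entered a limma fit, and the knockout arrays entered only the scale, the floor and the choice of probe set for a gene. Where the macrophages came from, how much LPS they received and for how long, and the strain, sex and age of the mice are not stated in the labels, nor is the number of animals behind an array. According to the series' design text, the pair served to define LPS-inducible genes. With 1 array a condition there is no replicate error: the folds below compare 2 arrays and carry no error or p-value, and a limma fit that borrows its spread from the LPS arrays is given near the end.

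LPS, the outer-membrane glycolipid of Gram-negative bacteria, is bound by CD14 and by the receptor pair of TLR4 and MD-2. The adaptor MyD88 then leads to NF-kB and MAP kinases, which drive cytokine and chemokine genes, while the adaptor TRIF leads to IRF3 and type I interferon, which drives antiviral genes. The response is restrained by inhibitors that it induces itself, among them A20, SOCS proteins, dual-specificity phosphatases and ribonucleases that destroy cytokine messages.

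The deposited values are MAS5 intensities, in which each probe set has 1 number per array. The medium and LPS arrays had the same 2% trimmed mean as deposited, 500, and the Trib1-line arrays labelled wild type, at 101 and 95.5, were multiplied up to it. A floor of 63.9, the 40th percentile of all arrays, stood in for any lower value when folds were formed, and 58.5% and 57.9% of the 45037 probe sets that are not controls lay above it on the medium and LPS arrays. Genes were represented by 1 probe set each, which gave 18193 genes, 13700 of them above the floor on either array of the pair. All 16 macrophage identity markers were above the floor, and their summed value was 350207 in medium and 408339 after LPS. Trib1, the gene deleted in the knockouts, has 2 probe sets on the array, and the labels do not say which part of the gene is deleted. The brighter one read 819.7 in medium, 405 after LPS, 38.3 on Trib1 #1 and 37.4 on Trib1 #2, against 188 and 44.7 on the knockout arrays of Trib1 #1 and Trib1 #2. Both Trib1-line arrays labelled wild type were thus under the floor, and so was the Trib1 #2 knockout array. Neither array labelled wild type stood above its knockout array, so these readings do not bear out the labels. With values under the floor and the deleted part unknown, they do not settle the genotypes. The dimmer probe set, at 43.1 and 135 on the arrays labelled wild type and 69.1 and 82.7 on the knockouts, did not separate them either. What is said below of recurrence rests on the labels of those 2 arrays. The pair and the Trib1-line arrays differed in sex-linked transcripts: Xist, expressed from the inactive X chromosome, read 3453 in medium, 2096 after LPS, 4.33 on Trib1 #1 and 7.95 on Trib1 #2, and the Y-linked Eif2s3y read 0.715 in medium, 10.1 after LPS, 1142 on Trib1 #1 and 468 on Trib1 #2. Fold changes seen on the pair but not on the Trib1-line arrays therefore come from arrays that also differ in line and in sex-linked transcripts, and these cannot be told apart.

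A gene was called induced where its LPS value was above the floor and at least 4-fold over medium, and repressed where its medium value was above the floor and at least 4-fold over LPS. By that rule 166 of the 13700 genes were induced, which is 1.21% of them, and 92 were repressed, which is 0.672%. Counted over all probe sets, including those without a single gene symbol, 287 of 29115 were induced, which is 0.986%, and 174 were repressed, which is 0.598%. At 2-fold 745 genes were higher, which is 5.44%, and 920 lower, which is 6.72%, but the balance turned to 821 higher and 727 lower under quantile normalization and was 840 and 860 with the arrays set to a common median. Over probe sets the 2-fold counts were 1461 higher, which is 5.02%, and 1832 lower, which is 6.29%. In all, 87.8% of genes lay within 2-fold, and the median log2 ratio of all genes was -0.11. The induced side reached much further: 22 genes were at least 16-fold higher and 8 at least 32-fold higher, whereas 1 gene, Rab7b, was at least 16-fold lower. Of the induced genes, 25 had a medium value under the floor, and of the repressed genes 20 had an LPS value under it, so that their folds are lower bounds and are written as "at least". The 287 induced probe sets held 0.668% of the summed signal in medium, 4.59% after LPS, and 3.43% and 4.65% on Trib1 #1 and Trib1 #2. At the bright end the rule had little room: 269 genes read above 15092 in medium, and 4 times that value is the highest on the LPS array, 60369.9.

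**Figure D1:**
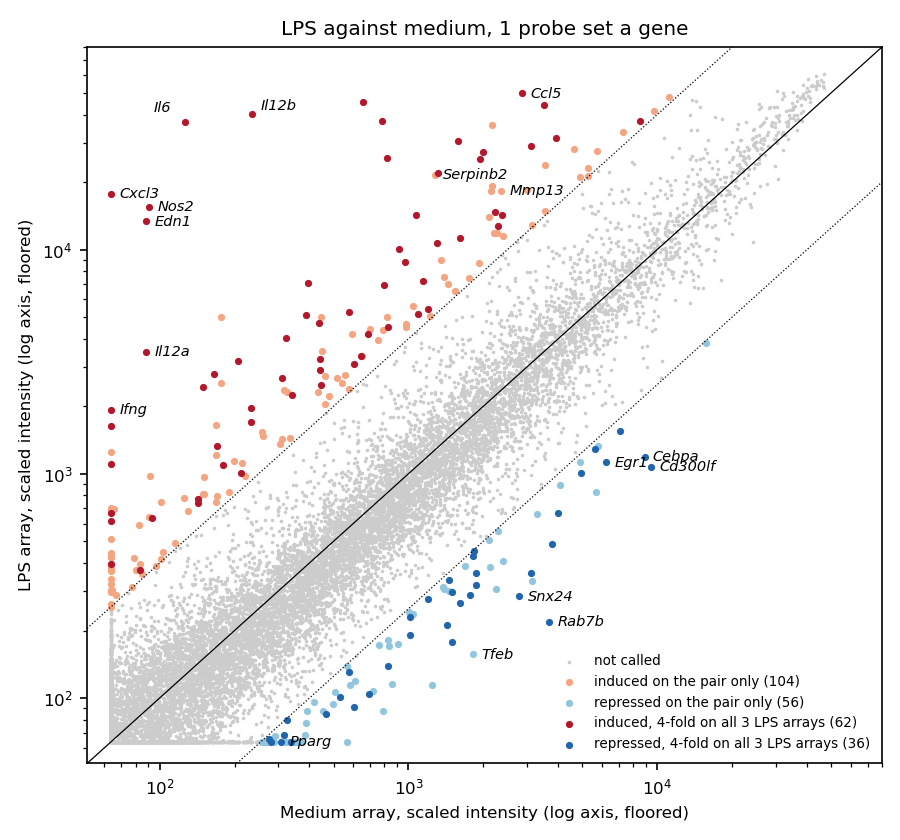
Scaled intensity of 18193 genes, 1 probe set each, in medium (horizontal axis) and after LPS (vertical axis), both log scaled, with values under the floor of 63.9 drawn at the floor. Coloured points are the 166 induced and 92 repressed genes, split by whether the change was also at least 4-fold on both Trib1-line wild-type arrays (62 and 36 genes), and the induced genes reach further from the diagonal than the repressed genes.

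A called gene was counted as recurring where it was also at least 4-fold from medium, in the same direction, on both Trib1-line LPS arrays labelled wild type. All 3 ratios share the single medium array, so a high or low reading on that array enters each of them and the count is not a test. Of the 166 induced genes 62 recurred, 42 passed 4-fold on 1 of those arrays and 62 on neither, and the 62 recurring genes are 0.453% of the genes above the floor. Of the 92 repressed genes 36 recurred, which is 0.263%, 25 passed on 1 array and 31 on neither. Over probe sets 128 of the 287 induced recurred, which is 0.44% of those above the floor, and 65 of the 174 repressed, which is 0.223%. Recurrence followed the size of the rise: 25 of 115 genes induced 4-fold to 8-fold recurred (21.7%), 19 of 29 between 8-fold and 16-fold (65.5%) and 18 of 22 from 16-fold up (81.8%). Among falls, 31 of 82 genes between 4-fold and 8-fold recurred (37.8%), 4 of 9 between 8-fold and 16-fold, and Rab7b above that. All 8 genes induced at least 32-fold recurred. For scale, LPS arrays labelled wild type also lay apart from each other: 223 probe sets, 0.721% of those above the floor on either, were at least 4-fold different between Trib1 #1 and Trib1 #2, and 380 (1.29%) and 461 (1.49%) between the LPS array of the pair and each of them. The share of probe sets at least 4-fold apart in either direction between LPS and medium was 1.58%, close to these figures, and the SD of the log2 ratio was 0.69 for LPS against medium and 0.62, 0.67 and 0.72 for the 3 like comparisons.

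**Figure D2:**
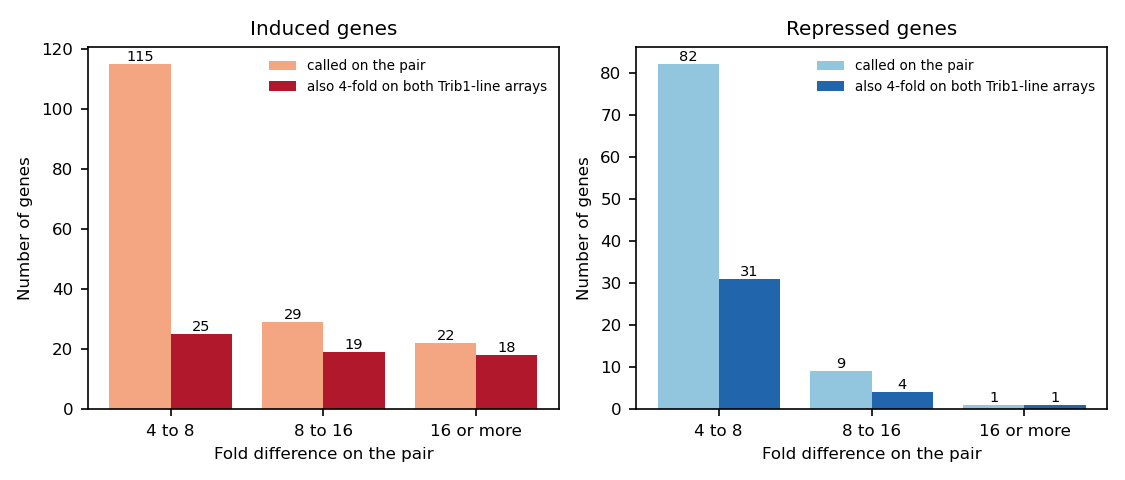
Number of genes called by the 4-fold rule on the pair (pale bars) and of those also at least 4-fold from medium on both Trib1-line LPS arrays labelled wild type (dark bars), by size of fold and direction. Induced genes recurred in 25 of 115, 19 of 29 and 18 of 22 cases from the lowest to the highest fold range; repressed genes in 31 of 82, 4 of 9 and 1 of 1.

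The promoters of a few induced genes are shown because they carry short sequences known to be bound by the transcription factors that LPS activates. Each is the 250 bases before the gene's start in RefSeq's annotation of GRCm38.p6, read 5′ to 3′ on the gene's strand, and lies upstream of the transcript. Il6 (chr5:30012864-30013113, plus strand), Cxcl3 (chr5:90785851-90786100, plus strand) and Cxcl1 (chr5:90890995-90891244, plus strand) are the 3 recurring genes of largest rise whose window holds GGGANTTTC, a core of the NF-kB binding site, on either strand, and the capitals mark that match.
Il6: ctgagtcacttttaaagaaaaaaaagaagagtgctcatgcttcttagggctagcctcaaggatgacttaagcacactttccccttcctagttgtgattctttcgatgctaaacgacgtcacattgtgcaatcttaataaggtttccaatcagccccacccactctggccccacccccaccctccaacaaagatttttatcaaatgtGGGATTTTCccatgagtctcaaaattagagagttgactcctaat
Cxcl3: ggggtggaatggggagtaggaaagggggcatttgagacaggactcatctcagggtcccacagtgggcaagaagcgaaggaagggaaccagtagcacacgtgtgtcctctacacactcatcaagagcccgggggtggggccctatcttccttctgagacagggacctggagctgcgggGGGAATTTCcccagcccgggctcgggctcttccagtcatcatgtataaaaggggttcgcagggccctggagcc
Cxcl1: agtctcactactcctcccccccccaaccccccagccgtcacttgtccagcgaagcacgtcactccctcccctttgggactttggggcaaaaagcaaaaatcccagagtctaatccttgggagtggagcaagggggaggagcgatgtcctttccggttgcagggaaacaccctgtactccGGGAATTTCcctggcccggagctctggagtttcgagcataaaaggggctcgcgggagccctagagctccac

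In Il6 the match, GGGATTTTC, spans bases 44 to 36 before the start, and the same window holds the AP-1-like TGANTCA, not capitalised. In Cxcl3 and Cxcl1, neighbouring genes of 1 chemokine cluster, the match is GGGAATTTC at 73 to 65 and at 71 to 63 bases before the start.

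A second set holds GAAANNGAA, found within interferon-stimulated response elements. Edn1 (chr13:42301226-42301475, plus strand), Ccl3 (chr11:83649379-83649628, minus strand) and Mir155hg (chr16:84712773-84713022, plus strand) are the 3 recurring genes of largest rise with a match, and Rsad2 (chr12:26456453-26456702, minus strand) and Ifit1 (chr19:34640639-34640888, plus strand) were added after their values were seen, as antiviral genes. Capitals mark the matches.
Edn1: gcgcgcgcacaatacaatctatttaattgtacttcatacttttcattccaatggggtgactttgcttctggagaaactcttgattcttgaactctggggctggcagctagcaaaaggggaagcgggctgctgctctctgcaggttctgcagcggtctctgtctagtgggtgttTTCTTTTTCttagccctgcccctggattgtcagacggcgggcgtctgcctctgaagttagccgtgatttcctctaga
Ccl3: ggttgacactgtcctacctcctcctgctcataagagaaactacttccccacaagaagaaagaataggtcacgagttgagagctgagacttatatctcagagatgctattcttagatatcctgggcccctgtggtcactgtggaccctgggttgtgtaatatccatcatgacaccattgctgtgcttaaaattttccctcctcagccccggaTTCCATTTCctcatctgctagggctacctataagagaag
Mir155hg: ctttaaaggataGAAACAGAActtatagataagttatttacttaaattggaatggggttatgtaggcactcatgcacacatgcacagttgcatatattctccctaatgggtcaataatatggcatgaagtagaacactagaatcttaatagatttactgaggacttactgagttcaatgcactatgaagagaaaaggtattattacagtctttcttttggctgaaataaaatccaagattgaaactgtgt
Rsad2: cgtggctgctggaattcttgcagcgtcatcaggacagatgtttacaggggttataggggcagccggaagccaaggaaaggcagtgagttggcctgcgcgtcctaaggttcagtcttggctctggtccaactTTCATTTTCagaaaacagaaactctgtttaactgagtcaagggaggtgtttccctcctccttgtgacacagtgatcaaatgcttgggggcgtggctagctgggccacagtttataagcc
Ifit1: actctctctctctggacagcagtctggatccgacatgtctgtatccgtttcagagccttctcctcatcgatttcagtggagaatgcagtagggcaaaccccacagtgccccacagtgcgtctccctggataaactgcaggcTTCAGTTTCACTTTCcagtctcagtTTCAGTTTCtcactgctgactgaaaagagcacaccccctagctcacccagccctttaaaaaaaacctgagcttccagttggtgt

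Ifit1 holds 3 matches, which overlap in part, and Rsad2, Edn1, Ccl3 and Mir155hg hold 1 each. Windows, each with the 50 bases after the start included for counting, were at hand for 14368 of the 18193 genes, 123 of the 166 induced and 73 of the 92 repressed. GGGANTTTC was found on either strand in 1.26% of all genes with a window, in 9 of 123 induced (7.32%) and in 0 of 73 repressed. Among induced genes it was held by 7 of the 51 that recurred (13.7%), which were Il6, Cxcl3, Cxcl1, Cxcl2, Gpr84, Ces5a and Cst7, and by 2 of the 72 that did not (2.78%), Ltb and Nfkb2. GAAANNGAA was found in 8.71% of all genes with a window, 14 of 123 induced (11.4%), 9 of 73 repressed (12.3%) and 11 of 18 genes of the antiviral list (61.1%). TGANTCA was found in 7.5% of all, 19 of 123 induced (15.4%) and 6 of 73 repressed (8.22%), and the cyclic AMP response element TGACGTCA in 2.94%, 1 of 123 (0.813%) and 2 of 73 (2.74%). A match is a description of the letters and was not tested as a binding site.

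Interleukins were among the largest rises. Il6, a cytokine of fever and the acute phase response, read 126 in medium, 37018 after LPS, 17307 on Trib1 #1 and 33902 on Trib1 #2, a 294-fold rise on the pair that moved it from percentile 44.3 to percentile 99.5 of all genes on its array. Il12b, the p40 subunit that interleukins 12 and 23 share, read 235 in medium, 40065 after LPS, 32793 on Trib1 #1 and 30686 on Trib1 #2 (171-fold), and a second Il12b probe set read 117 and 37591 (321-fold). Il12a, the p35 subunit of interleukin 12, read 88.1 in medium, 3500.5 after LPS, 3690.5 on Trib1 #1 and 16454 on Trib1 #2 (39.7-fold). All LPS arrays stood far above medium for these 3 genes, and Trib1 #2 was the highest of the 3 for Il12a. Ifng, the interferon that interleukin 12 elicits from lymphocytes, read 5.46 in medium, 1932 after LPS, 270.2 on Trib1 #1 and 882 on Trib1 #2, at least 30.2-fold over the floor. Ebi3, the shared subunit of interleukins 27 and 35, had a log2 ratio of 0.84. Thus 3 of the 4 members of this group above the floor were induced, all recurring, and the median log2 ratio was 5.12 against -0.11 for all genes. Fewer cells of a type and less RNA per cell cannot be told apart in such bulk samples, which applies to each gene below.

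In the interleukin 1 family, ligands and receptors differed in their counts: 4 of 7 ligands above the floor and 0 of 7 receptors were induced, with median log2 ratios of 2.50 and 0.36. Il1b, released after caspase-1 cleavage, read 654 in medium, 45310.2 after LPS, 24509.6 on Trib1 #1 and 41201 on Trib1 #2 (69.3-fold), and Il1a, active without that cleavage, read 779.8 in medium, 37471 after LPS, 13926 on Trib1 #1 and 28970.3 on Trib1 #2 (48.1-fold). Both were lowest in medium by a wide margin and lower on Trib1 #1 than on the other LPS arrays. Il33, an alarmin, went from 65.3 to 699.7 (10.7-fold), with 188 and 289 on the Trib1-line arrays, and Il1f6, the interleukin 36 alpha gene, from 260.4 to 1471 (5.65-fold), with 464 and 895. Il1rn, the receptor antagonist, went from 13838 to 46376 and Il18 from 1794 to 5042, log2 ratios of 1.74 and 1.49 that did not pass the rule. Among the interleukin 6 and 10 families 2 of 15 were induced (median log2 0.25): beside Il6, Il10, the main anti-inflammatory interleukin of macrophages, went from 83.2 to 397 (4.77-fold) but read 121 and 115 on the Trib1-line arrays. Lif had a log2 ratio of 1.75 and Osm of 0.96.

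Chemokines formed the next group. Of the CXC ligands 4 of 14 above the floor were induced and all 4 recurred (median log2 0.48). Cxcl3, Cxcl1 and Cxcl2 attract neutrophils through CXCR2: Cxcl3 read 35.3 in medium, 17761 after LPS, 4928 on Trib1 #1 and 4519.5 on Trib1 #2 (at least 278-fold). Cxcl1 read 821 in medium, 25660.1 after LPS, 11968 on Trib1 #1 and 25916 on Trib1 #2 (31.3-fold), and Cxcl2 read 3493 in medium, 44167 after LPS, 27455 on Trib1 #1 and 42084 on Trib1 #2 (12.6-fold). The windows printed above for Il6, Cxcl3 and Cxcl1 were chosen as those of largest rise with a match, so the size of these rises says nothing of the match. Cxcl11, a ligand of CXCR3 on T cells, read 646 in medium, 3345 after LPS, 16898 on Trib1 #1 and 8539 on Trib1 #2 (5.18-fold), higher on both Trib1-line arrays than on the LPS array of the pair. The other CXCR3 ligands did not pass the rule: Cxcl10 read 30653 in medium, 38606 after LPS, 27112 on Trib1 #1 and 35475 on Trib1 #2, already at the bright end in medium, and Cxcl9 had a log2 ratio of 0.63.

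Of the CC ligands 6 of 14 were induced and 3 recurred (median log2 1.30). Ccl3, which draws monocytes and T cells, read 1581 in medium, 30405 after LPS, 15659 on Trib1 #1 and 44962 on Trib1 #2 (19.2-fold). Ccl5, which draws T cells and monocytes, read 2865 in medium, 49706 after LPS, 41047 on Trib1 #1 and 44532 on Trib1 #2 (17.4-fold), and Ccl22, a ligand of CCR4, read 340.3 in medium, 2241 after LPS, 4193 on Trib1 #1 and 2393 on Trib1 #2 (6.59-fold). These 3 recurred. Ccl4 went from 2146 to 18218 (8.49-fold) with 6066 and 20366 on the Trib1-line arrays, and Ccl7, a monocyte attractant, from 2986 to 18453 (6.18-fold) with 5665 and 15083. Xcl1 went from 2.94 to 264 (at least 4.13-fold). The related Ccl2 and Ccl12 had log2 ratios of 1.57 and 1.04, and Ccl8 of -1.18. Of 12 receptors 2 were induced: Fpr2, a receptor for formylated bacterial peptides, read 1319 in medium, 22025 after LPS, 28580.4 on Trib1 #1 and 33104 on Trib1 #2 (16.7-fold), and Ccr7, which guides cells to lymph nodes, went from 149 to 815 (5.47-fold) with 455 and 779 on the Trib1-line arrays. Ccr2 and C3ar1 had log2 ratios of -1.06 and -1.04.

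**Figure D3:**
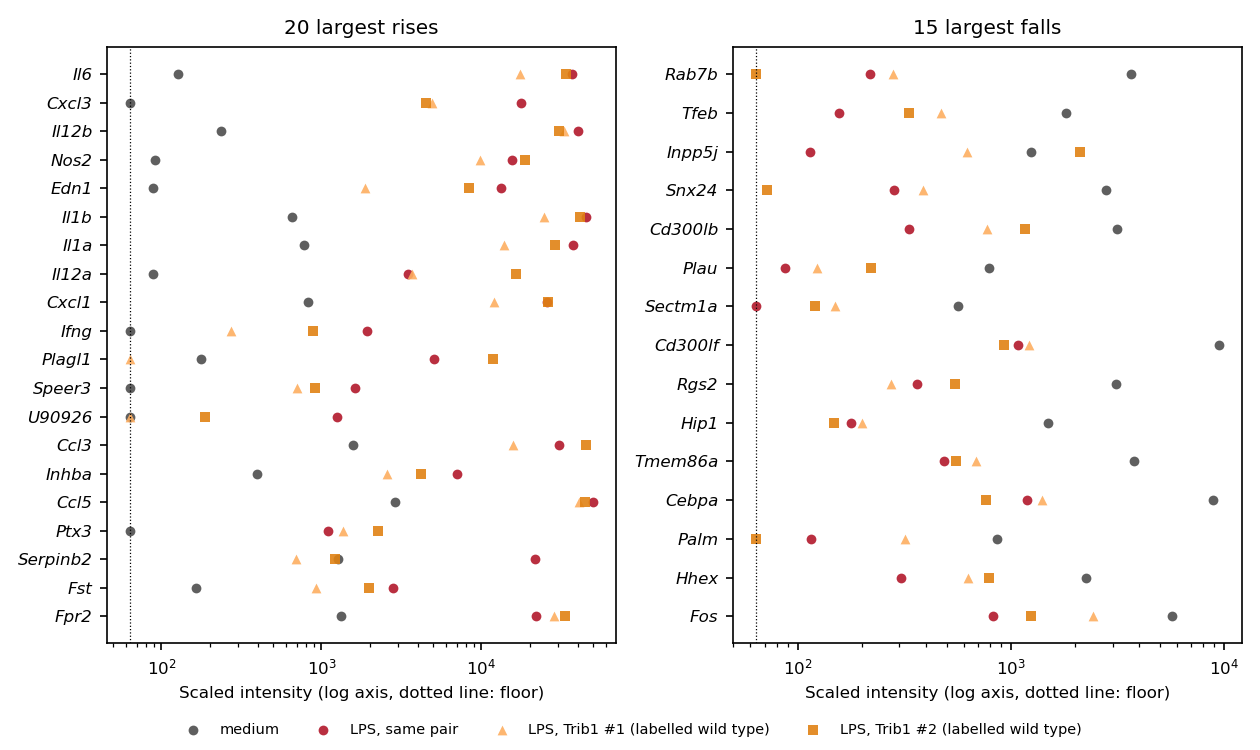
Scaled intensity, on a log axis, of the 20 genes with the largest rise and the 15 with the largest fall on the pair, 1 point for each of the medium, LPS, Trib1 #1 and Trib1 #2 arrays labelled wild type. For Il6, Il12b and Nos2 all LPS points stand together above medium; for Plagl1, U90926 and Serpinb2 at least 1 Trib1-line point lies near or below medium.

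The gene of tumour necrosis factor itself did not pass the rule. Tnf read 14362 in medium, 45854 after LPS, 37542 on Trib1 #1 and 44228 on Trib1 #2, a log2 ratio of 1.67 on the pair. In its superfamily 4 of 19 genes above the floor were induced, none recurring on both arrays by the probe set taken for the gene (median log2 0.26). A probe set of the receptor gene Tnfrsf1b that was not the one taken was induced and recurred. These were the ligands Tnfsf9, also called 4-1BBL, from 701 to 4427 (6.31-fold), Ltb, the lymphotoxin beta gene, from 125 to 777 (6.20-fold), and Tnfsf4, the OX40 ligand gene, from 171 to 796 (4.67-fold). The fourth was the receptor Cd40, which read 11167 in medium, 48071 after LPS, 42489 on Trib1 #1 and 46276 on Trib1 #2 (4.30-fold), so that Trib1 #1 fell just short of 4-fold. The call of this probe set on the pair was lost under quantile normalization. Other Cd40 probe sets rose 5.77-fold, recurring, and 4.19-fold, passing on 1 Trib1-line array. Of the colony-stimulating factor genes and receptors 2 of 8 were induced (median log2 0.76): Csf3, the granulocyte factor, read 80.4 in medium, 373 after LPS, 278 on Trib1 #1 and 611 on Trib1 #2 (4.65-fold), and Csf2, the granulocyte-macrophage factor, read 14.4 in medium, 298 after LPS, 9.24 on Trib1 #1 and 13.3 on Trib1 #2 (at least 4.66-fold). Csf1 and its receptor Csf1r had log2 ratios of 1.88 and -0.56.

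Some interferon target genes were induced. Of 25 antiviral genes above the floor 8 were induced and 5 recurred, none was repressed, and the median log2 ratio was 0.78. Rsad2, which makes a chain-terminating nucleotide, read 3923 in medium, 31581 after LPS, 30803 on Trib1 #1 and 45692 on Trib1 #2 (8.05-fold), and Cmpk2, its genomic neighbour, went from 1141 to 7252 (6.35-fold) with 6670.2 and 17051. Mx1 and Mx2 encode dynamin-like GTPases that block viruses: Mx1 read 1302 in medium, 10648 after LPS, 6692 on Trib1 #1 and 14313 on Trib1 #2 (8.18-fold) and Mx2 25.8 in medium, 668 after LPS, 481 on Trib1 #1 and 1994 on Trib1 #2 (at least 10.5-fold). Ifit1, which binds viral RNA that lacks the host's cap methylation and whose promoter held 3 matches, read 2281 in medium, 12766 after LPS, 10014 on Trib1 #1 and 23413 on Trib1 #2 (5.6-fold). The others that passed the rule on the pair, Oasl1, Isg20 and Ifih1, had log2 ratios of 2.26, 2.24 and 2.11, while Ifit3, Oas2 and Bst2 stood at 1.10, 0.90 and 0.68. These 6 and Ifit1 are named after their values were seen. Usp18, which limits signalling by the interferon receptor, was the only gene of 13 in the group of interferons and their signalling genes to pass the rule, at 2367 in medium, 14227 after LPS, 14119.5 on Trib1 #1 and 22300.5 on Trib1 #2 (6.01-fold). Ifnb1 read 117 in medium, 110.5 after LPS, 62.0 on Trib1 #1 and 471 on Trib1 #2, without a rise on the pair. Of 8 interferon regulatory factors none was called (median log2 0.03, and -0.04 under quantile normalization): Irf7 stood at a log2 ratio of 1.17 and Irf5 at -1.0. None of 8 interferon-inducible GTPases was called either (median log2 0.18, and -0.09 under quantile normalization), with Ifi47 0.40 and Igtp -0.42.

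Antigen presentation lists gave no calls, while 46.2% of the costimulatory and checkpoint list was called, against 1.88% of all genes. None of 11 MHC class I and immunoproteasome genes (median log2 0.21, and -0.07 under quantile normalization) and none of 10 MHC class II genes (median log2 0.27) was called; log2 ratios were 0.50 for the peptide transporter Tap1, -0.56 for Psmb10, -1.18 for the class II transactivator Ciita and -1.42 for the peptide-loading chain H2-DMa. Of 13 costimulatory and checkpoint genes 4 were induced and 2 repressed (median log2 0.78). Slamf1, a self-ligand that also takes part in bacterial sensing, read 207 in medium, 3182 after LPS, 3981 on Trib1 #1 and 2496 on Trib1 #2 (15.4-fold), and Cd80, the B7-1 ligand of CD28 and CTLA-4, read 180.4 in medium, 1097 after LPS, 1762 on Trib1 #1 and 3157 on Trib1 #2 (6.08-fold). Icosl went from 433 to 2316 (5.35-fold) with 3746 and 653, and Slamf7 from 5259 to 21278 (4.05-fold) with 7889.8 and 17194. Cd86, the partner of Cd80, had a log2 ratio of 0.96, and Cd274, which encodes PD-L1, of 0.19. Both repressed genes encode inhibitory receptors, and both recurred: Cd200r1 read 4953 in medium, 1009 after LPS, 1103 on Trib1 #1 and 876 on Trib1 #2 (4.91-fold lower), and Havcr2, which encodes TIM-3, read 316 in medium, 68.2 after LPS, 63.3 on Trib1 #1 and 25.4 on Trib1 #2 (4.64-fold lower). The ligand of Cd200r1, Cd200, was induced and recurred, at 574 in medium, 5249.6 after LPS, 8384 on Trib1 #1 and 5616 on Trib1 #2 (9.14-fold); it stands outside the naming rule and was picked after its value was seen.

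Among sensors of LPS and the Toll-like receptors, none of 23 was induced and 1 was repressed (median log2 0.20). That gene was Tlr13, a sensor of bacterial ribosomal RNA, at 2136 in medium, 382 after LPS, 380.4 on Trib1 #1 and 741 on Trib1 #2 (5.58-fold lower). The LPS receptor genes did not pass the rule, with log2 ratios of -1.31 for Tlr4, 0.40 for Ly96, which encodes MD-2, and 1.57 for Cd14. In the NF-kB pathway 4 of 23 genes were induced and 1 recurred (median log2 0.72). Traf1, an adaptor of TNF receptors, read 323 in medium, 4036 after LPS, 3644 on Trib1 #1 and 3766 on Trib1 #2 (12.5-fold). Tnip1, a partner of A20, went from 3553 to 23793 (6.70-fold), Nfkbiz, a nuclear co-activator of secondary response genes, from 2117 to 13964 (6.60-fold), and Nfkb2, the p100 precursor, from 2273 to 11878 (5.22-fold). Another Nfkbiz probe set rose 9.04-fold and recurred, and a further one had a log2 ratio of -0.05. The inhibitors Nfkbia and Tnfaip3, which encodes A20, had log2 ratios of 0.52 and 1.17, below the rule.

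Immediate early factors were divided, with 1 of 21 induced and 2 repressed (median log2 0.36). Egr1, a zinc finger factor of the first wave after stimulation, read 6239 in medium, 1124 after LPS, 701 on Trib1 #1 and 618 on Trib1 #2 (5.55-fold lower, recurring), and Fos, an AP-1 subunit, read 5672 in medium, 826 after LPS, 2431 on Trib1 #1 and 1242 on Trib1 #2 (6.87-fold lower). Both stood highest in medium. The orphan nuclear receptor gene Nr4a3 went from 101 to 748 (7.41-fold) with 177 and 428. Another of its probe sets, close to the floor at 64.7 in medium and 50.9 after LPS, had a log2 ratio of -0.02. Jun had a log2 ratio of -1.57 and Atf3 of 0.69. Of the MAP kinase and SOCS feedback genes 3 of 21 were induced and none recurred (median log2 0.63). The phosphatase gene Dusp4 read 91.8 in medium, 978 after LPS, 236 on Trib1 #1 and 336 on Trib1 #2 (10.6-fold), Dusp16, which encodes a phosphatase of JNK, went from 649.6 to 3346 (5.15-fold), and Cish, a SOCS-family inhibitor, from 787 to 4397 (5.59-fold). Socs3 and Dusp1 had log2 ratios of 1.23 and 1.04. Among 11 regulators of messenger RNA decay 2 were induced (median log2 -0.20), the ribonuclease gene Zc3h12a at 591 in medium, 4215 after LPS, 2064 on Trib1 #1 and 2224 on Trib1 #2 (7.14-fold) and its relative Zc3h12c from 464 to 2056 (4.43-fold). Neither recurred; Zc3h12a was above medium on all LPS arrays.

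Of the 8 prostaglandin enzyme genes above the floor 2 were induced (median log2 of the 8 -0.54), and of 5 receptor genes above it 1 was repressed. Ptgs2, the inducible cyclooxygenase, read 1991 in medium, 27172 after LPS, 9079 on Trib1 #1 and 35237 on Trib1 #2 (13.6-fold), and Ptges, the inducible prostaglandin E synthase, read 437 in medium, 4687 after LPS, 3619.8 on Trib1 #1 and 5123 on Trib1 #2 (10.7-fold). Ptger2, a receptor for prostaglandin E2 that raises cyclic AMP, read 831 in medium, 138 after LPS, 66.6 on Trib1 #1 and 77.4 on Trib1 #2 (6.0-fold lower). All 3 recurred, and of the 13 genes above the floor no other was called (median log2 -0.41); the second E2 receptor of this kind, Ptger4, had a log2 ratio of 1.19. Of 8 leukotriene genes 1 was repressed (median log2 -0.44), the leukotriene B4 receptor gene Ltb4r1, from 830.3 to 182 (4.57-fold lower) with 672 and 244 on the Trib1-line arrays.

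Nitric oxide synthesis and cystine uptake were represented by recurring rises. Nos2, the inducible nitric oxide synthase, read 91.0 in medium, 15499 after LPS, 9865 on Trib1 #1 and 18659 on Trib1 #2 (170.3-fold), and Slc7a2, the transporter that brings arginine into activated macrophages, read 1071 in medium, 14276 after LPS, 14389 on Trib1 #1 and 13074 on Trib1 #2 (13.3-fold). They were 2 of 13 genes of arginine handling (median log2 0.07), where Arg2 and Gch1 had log2 ratios of 1.38 and 1.24 and Arg1, which competes for arginine, of -1.17. Slc7a11, the cystine importer that feeds glutathione synthesis, read 149 in medium, 2443 after LPS, 1001 on Trib1 #1 and 2355 on Trib1 #2 (16.4-fold) and was the only one of 19 oxidase and antioxidant genes to be called (median log2 -0.05). The glutathione synthesis subunits Gclm and Gclc had log2 ratios of -1.14 and -0.98, and Hmox1 of -0.36.

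In the lists of central metabolism and transport the share called ranged from 0% to 13.3%, against 1.88% of all genes. In lists this short 1 gene makes up several percent. None of 13 genes of itaconate synthesis and the tricarboxylic acid cycle was called (median log2 -0.28): Acod1, the itaconate enzyme, read 31694 in medium, 47142 after LPS, 40409 on Trib1 #1 and 43736 on Trib1 #2, and Idh1 and Idh2 had log2 ratios of -1.23 and -0.87. Of 18 glycolysis and hypoxia genes only Vegfa, the vascular growth factor gene, was called, as repressed, from 567 to 139 (4.08-fold lower) with 458 and 57.0 on the Trib1-line arrays (list median log2 -0.14). None of 14 sterol and fatty acid synthesis genes was called (median log2 -0.27), with Sqle -1.36 and Dhcr7 -1.18. In the group of LXR and lipid transport genes 1 of 15 was induced and 1 repressed (median log2 -0.12). Pparg, the lipid-sensing nuclear receptor, read 308 in medium, 45.4 after LPS, 13 on Trib1 #1 and 12.3 on Trib1 #2 (at least 4.82-fold lower, recurring), and Ch25h, which makes 25-hydroxycholesterol, went from 4619 to 27962 (6.05-fold) with 8013 and 25179. Solute carriers gave 2 of 16 (median log2 0.51): the hexose transporter gene Slc2a6 from 2230.0 to 14698 (6.59-fold, recurring, with 16433 and 15168), and the metal transporter gene Slc39a14 from 464 to 2737 (5.90-fold) with 914 and 869.9. Slc39a14 was also the only one of 14 iron and metallothionein genes called (median log2 0.26), where Mt1 and Mt2 had log2 ratios of 1.2 and 1.32.

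Secreted factors with targets beyond immune cells were among the largest rises. Edn1, the vasoconstrictor endothelin 1, read 88.5 in medium, 13345 after LPS, 1877 on Trib1 #1 and 8329 on Trib1 #2 (151-fold), and Inhba, the activin A subunit, read 396 in medium, 7087 after LPS, 2556 on Trib1 #1 and 4172 on Trib1 #2 (17.9-fold). Fst, the follistatin gene, whose product binds and blocks activin, read 165 in medium, 2796 after LPS, 927 on Trib1 #1 and 1975 on Trib1 #2 (16.9-fold). All 3 recurred, and for each the lowest LPS reading was on Trib1 #1. Edn1 and Inhba were 2 of 16 endothelin and growth factor genes (median log2 -0.31); Hbegf and Adm had log2 ratios of 1.13 and 1.02. Ptx3, a soluble pattern recognition protein, read 63.6 in medium, 1105 after LPS, 1362 on Trib1 #1 and 2257 on Trib1 #2 (at least 17.3-fold), and Lcn2, which binds bacterial siderophores, read 446 in medium, 4989 after LPS, 7939.9 on Trib1 #1 and 844 on Trib1 #2 (11.2-fold), with Trib1 #2 the lowest of the LPS arrays. They were 2 of 12 secreted defence genes (median log2 0.42), where Saa3 had a log2 ratio of 0.80.

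Genes of proteolysis and coagulation gave rises that in several cases were not seen on the Trib1-line arrays. Procr, the endothelial protein C receptor gene, read 1947 in medium, 25436 after LPS, 28909 on Trib1 #1 and 21455 on Trib1 #2 (13.1-fold) and recurred. Serpinb2, an inhibitor of plasminogen activators, read 1273 in medium, 21539.8 after LPS, 698 on Trib1 #1 and 1218 on Trib1 #2 (16.9-fold), so that neither Trib1-line array exceeded medium. F10, the coagulation factor X gene, went from 7295 to 33548 (4.60-fold) with 28903 and 40223. Other F10 probe sets rose 6.33-fold and 6.36-fold, both recurring. Plau, the urokinase gene, read 791 in medium, 87.3 after LPS, 123 on Trib1 #1 and 221 on Trib1 #2 (9.06-fold lower). In all, 3 of 14 coagulation genes were induced and 1 repressed (median log2 -0.00). Of 18 matrix proteases and inhibitors 4 were induced and 1 recurred (median log2 0.27). Timp1, an inhibitor of metalloproteases, read 2172 in medium, 35893 after LPS, 3215 on Trib1 #1 and 6886 on Trib1 #2 (16.5-fold), and the collagenase gene Mmp13 read 2361 in medium, 18264 after LPS, 1158 on Trib1 #1 and 1610.0 on Trib1 #2 (7.74-fold). The membrane-bound metalloprotease gene Mmp14 went from 3554 to 14855 (4.18-fold) with 12777 and 11899.5. Other Mmp14 probe sets rose 4.34-fold, recurring, and 4.88-fold, passing on 1 Trib1-line array. By the probe set taken for each gene, the recurring member was Cst7, the cystatin F gene, from 212 to 1013 (4.79-fold) with 3562 and 5891. None of 10 complement genes was called (median log2 0.00, and -0.25 under quantile normalization); Cfb, factor B of the alternative pathway, had a log2 ratio of 1.53 and Cd55 of -0.46.

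Several of the largest falls were genes of endosomes, lysosomes and uptake, though most members of each list were not called. The lists were chosen with earlier results of these data known, so their counts are not independent of those results. Rab7b, a small GTPase of late endosomes known to limit TLR4 signalling, read 3676 in medium, 218 after LPS, 281 on Trib1 #1 and 54.2 on Trib1 #2 (16.8-fold lower), and a second probe set gave 19.3-fold. Snx24, a sorting nexin, read 2786 in medium, 284 after LPS, 389 on Trib1 #1 and 71.5 on Trib1 #2 (9.82-fold lower). Both recurred, and for both Trib1 #2 was the lowest array. They were the 2 repressed genes of 17 Rab GTPases and sorting factors, beside 1 induced, Rab11fip1, from 168 to 746 (4.45-fold, list median log2 -0.01). Another Rab11fip1 probe set, at 45.6 in medium, rose at least 5.10-fold and recurred. Tfeb, the master regulator of lysosome biogenesis, read 1812 in medium, 156 after LPS, 472 on Trib1 #1 and 333 on Trib1 #2 (11.6-fold lower, passing on 1 Trib1-line array). It was the only one of 23 lysosome genes called (median log2 -0.04); its relatives Tfe3, Mitf and Tfec had log2 ratios of -0.51, 0.41 and 0.47, and Lamp1 and Ctsd of 0.26 and 0.35. None of 11 autophagy genes was called (median log2 -0.28), with Atg5 -0.93 and Ulk1 -0.89.

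Receptors of the CD300 family bind lipids exposed on dying cells. Cd300lf read 9422 in medium, 1075 after LPS, 1216 on Trib1 #1 and 923 on Trib1 #2 (8.77-fold lower, recurring), and Cd300lb read 3141 in medium, 332 after LPS, 776 on Trib1 #1 and 1162 on Trib1 #2 (9.45-fold lower). They were 2 of 13 apoptotic cell uptake genes (median log2 -0.48), where Mertk had a log2 ratio of 1.54 and Stab1 of -0.78. Among 22 scavenger, C-type lectin and Fc receptors 1 was induced, Clec4e, which encodes Mincle, a receptor for mycobacterial glycolipid, from 9724 to 41519.6 (4.27-fold) with 34348 and 40369 (median log2 -0.34). Another Clec4e probe set rose 5.49-fold and recurred. Of 16 adhesion molecules 1 was induced, Vcam1, from 3135 to 12888 (4.11-fold) with 10777 and 15351 (median log2 0.27), and Icam1 had a log2 ratio of 0.47. Other Vcam1 probe sets rose 4.63-fold, recurring, and 3.39-fold, short of the rule.

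Regulators of G protein and phosphoinositide signalling changed in both directions, with 3 of 21 induced and 3 repressed (median log2 -0.20). This list too was chosen with earlier results known. Rgs2 and Rgs18 shorten signalling by G proteins: Rgs2 read 3099 in medium, 363 after LPS, 274 on Trib1 #1 and 546 on Trib1 #2 (8.55-fold lower), and Rgs18 read 1011 in medium, 190.4 after LPS, 8.63 on Trib1 #1 and 21.0 on Trib1 #2 (5.31-fold lower). Both recurred. Other Rgs2 probe sets were 8.44-fold and 9.16-fold lower and recurred, while a dim one, at 86.8 in medium and 87.7 after LPS, had a log2 ratio of 0.01. Inpp5j, a phosphoinositide phosphatase, read 1239 in medium, 114 after LPS, 625 on Trib1 #1 and 2119 on Trib1 #2 (10.8-fold lower), with Trib1 #2 above medium. The induced members encode small GTPases: Rnd1 read 176 in medium, 2549 after LPS, 235 on Trib1 #1 and 333 on Trib1 #2 (14.5-fold). Rnd3 went from 258 to 1533 (5.93-fold) with 1644 and 646, and Rhob from 5249 to 23096 (4.40-fold) with 3117 and 3829. Another Rnd3 probe set, at 42.6 in medium, rose at least 25.4-fold and recurred. Of 17 cyclic AMP and purine signalling genes 1 was repressed (median log2 -0.34), P2ry12, the ADP receptor gene, at 578 in medium, 130.3 after LPS, 99.5 on Trib1 #1 and 143 on Trib1 #2 (4.43-fold lower, recurring); its call was lost under quantile normalization. Pde4b and Adcy7 had log2 ratios of 1.78 and -1.49.

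Among Kruppel-like and lineage factors 1 of 22 was called (median log2 0.01, and -0.08 under quantile normalization), and it recurred. This was Cebpa, a factor of myeloid differentiation, at 8887 in medium, 1184 after LPS, 1403 on Trib1 #1 and 761 on Trib1 #2 (7.51-fold lower). The other C/EBP genes did not pass the rule, with log2 ratios of 0.22 for Cebpb and 1.49 for Cebpd, and Spi1, which encodes PU.1, stood at 0.15. A mixed list of 8 genes held Trib1, Trib2, Trib3, Cop1, Fbxw7, Mkks, Map2k1 and Map2k4, and none was called (median log2 0.32). Trib1, given above, had a log2 ratio of -1.02, and Cop1, the ligase that C/EBP alpha is delivered to by Trib1, stood at 1.5. Of 14 alternative activation genes only Il10 was called (median log2 0.12, and -0.12 under quantile normalization), with Klf4 at a log2 ratio of -1.37.

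Among growth, death, stress and housekeeping lists, calls came to 3.85% of cell cycle and 10% of inflammasome genes, against 1.88% of all genes. Ccnd2, the cyclin D2 gene, read 917 in medium, 10053 after LPS, 4806 on Trib1 #1 and 4240.3 on Trib1 #2 (11-fold, recurring) and was the only one of 26 cell cycle genes called (median log2 -0.37); Mki67 had a log2 ratio of 1.65. Mefv, which encodes pyrin, went from 1357 to 9004 (6.64-fold) with 5690.1 and 4143 and was the only one of 10 inflammasome genes called (median log2 -0.05), beside Nlrp3 at a log2 ratio of 1.99, just short of the rule. None of 18 apoptosis regulators was called (median log2 0.21), with Cflar 1.57 and Bcl2l11 -1.38, nor any of 18 stress response genes (median log2 -0.11), with Hspa1b 1.87 and Ppp1r15a 1.65. The same held for 22 respiratory chain subunits (median log2 -0.11, with Uqcrfs1 0.45 and Atp5c1 -0.55), 18 proteasome subunits (-0.02, with Psmb6 0.55 and Psmd11 0.52), 13 ribosomal proteins (0.21, and -0.11 under quantile normalization, with Rps9 0.33 and Rps18 0.33) and 7 housekeeping genes (-0.28, with Hprt -0.63 and Polr2a -0.58).

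**Figure D4:**
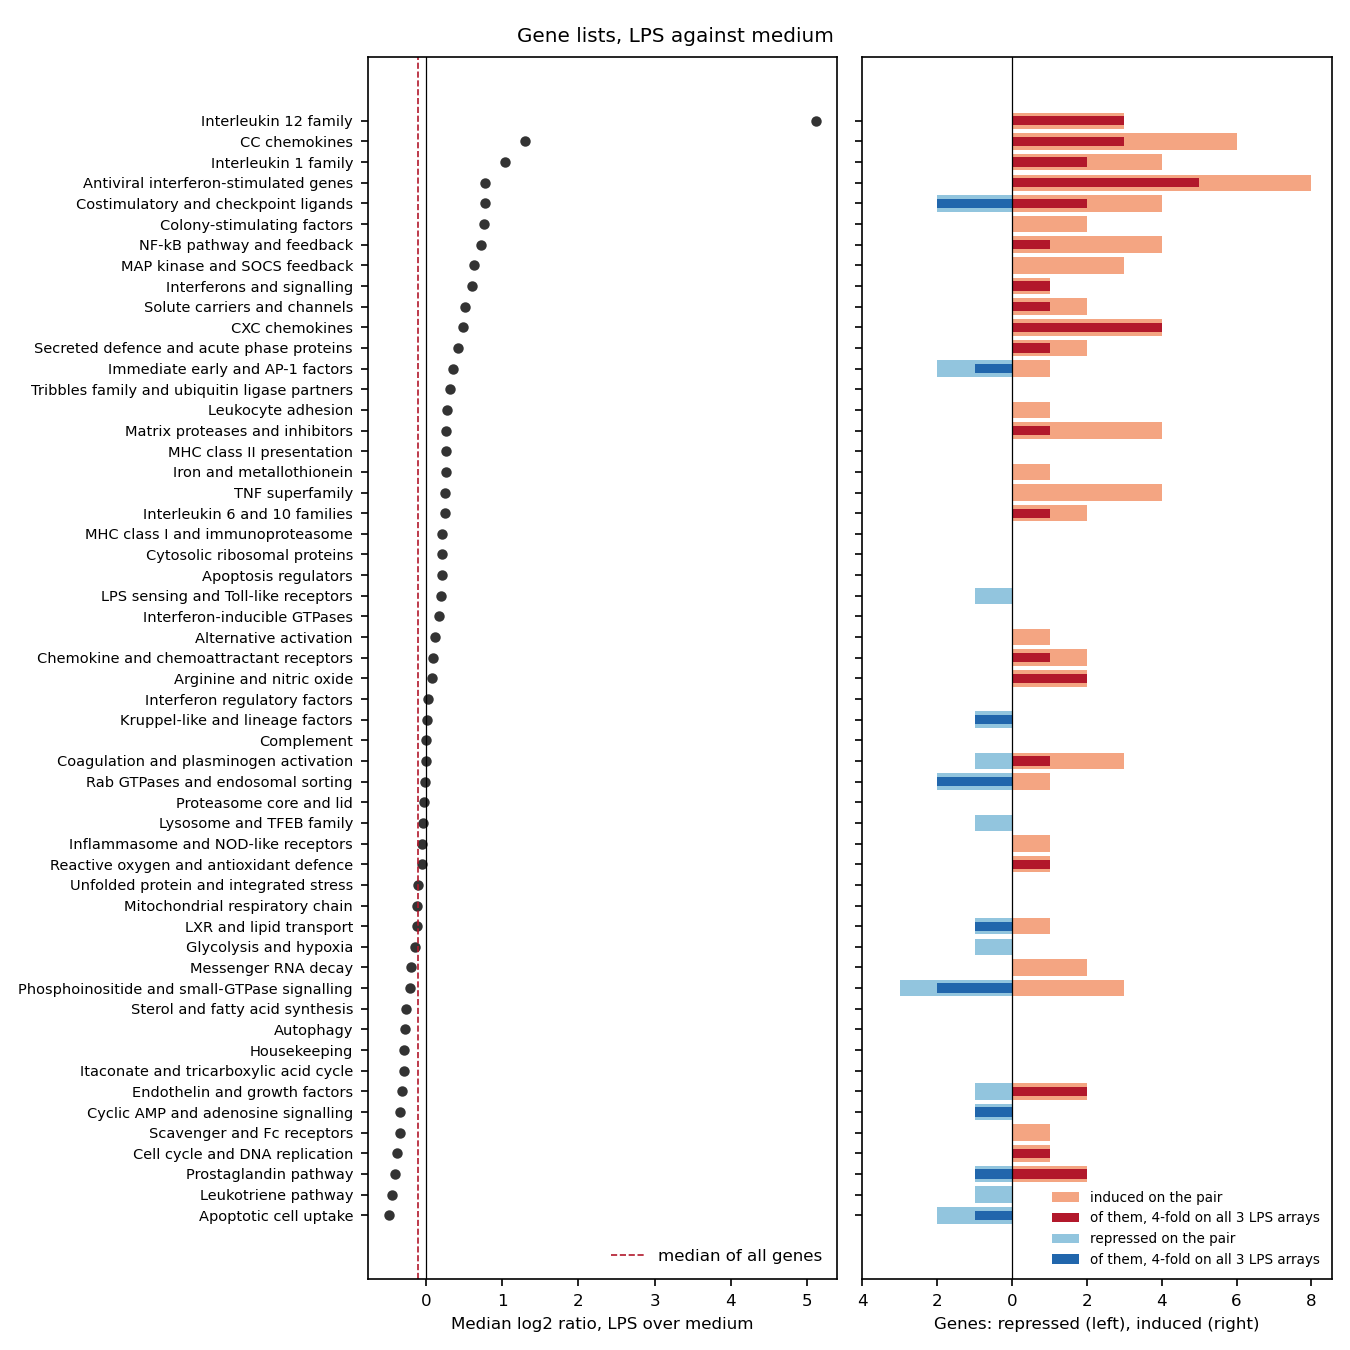
The 54 pathway lists, with the median over members above the floor of the log2 ratio after LPS (points; the dashed line marks the median of all genes, -0.11) and the number of members induced or repressed, with those that recurred drawn darker. The interleukin 12 list has the highest median, 5.12, and the antiviral list the most induced members, 8.

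Markers of other cell types were read on the same arrays. The 11 B cell markers on the array, 10 of them above the floor, summed to 7246 in medium and 20039 after LPS. On Trib1 #1 and Trib1 #2 they summed to 2391 and 4388, so that the LPS array of the pair held the most B cell signal. Ighm, the immunoglobulin mu chain, read 3499.7 in medium, 12902 after LPS, 664 on Trib1 #1 and 2112 on Trib1 #2, and Ms4a1, which encodes CD20, read 874 in medium, 2149 after LPS, 405 on Trib1 #1 and 481 on Trib1 #2. Ly6d was the only one of the 10 called, at 199 in medium, 1142 after LPS, 178 on Trib1 #1 and 225 on Trib1 #2 (5.75-fold). Ltb, Ccr7, Cd40, Icosl, Il10 and Ccnd2, described above, are also transcribed by B cells, and the part of these markers in their rises was not tested. The 16 markers of T and natural killer cells on the array, 14 of them above the floor, summed to 2747, 3846, 5039 and 5169.6 in the same order. The granzyme genes Gzmb, from 56.3 to 398 (at least 6.22-fold) with 168 and 343, and Gzma, from 84.7 to 356 (4.20-fold) with 259 and 364, were called, while Cd3e, a defining T cell chain, read 77.7 in medium, 67.4 after LPS, 75.2 on Trib1 #1 and 82.6 on Trib1 #2. Ifng and Xcl1 are products of these cells as well, and the part of such cells in their rises was not tested.

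Neutrophil markers (12 on the array, 9 above the floor) summed to 4703, 7609, 8133 and 7193 and none was called, with S100a9 1.38 and Csf3r 0.91. Mast cell and eosinophil markers (14 on the array, 11 above the floor) summed to 3281, 4482, 2262 and 3237. None was called, with Hdc 1.46 and Il5ra 1.39. Dendritic cell markers (9 on the array, 8 above the floor) summed to 2947, 4499, 7587 and 10438, with Ccr7 the only one called. Mesothelial and stromal markers (14 and 9) summed to 2577, 2298, 3104 and 3871, with Pecam1 1.41 and Col3a1 -0.84. Erythroid and platelet markers (6 and 5) summed to 13291, 14303, 5886 and 6991, with Hba-a1 0.51 and Gp9 -0.54. No member of the last 2 lists was called. Among the macrophage markers 1 of 16 was called, Aif1, which encodes the actin-bundling protein IBA1, at 1372 in medium, 312 after LPS, 2249.5 on Trib1 #1 and 3054 on Trib1 #2 (4.40-fold lower); both Trib1-line arrays lay above medium, and the call was lost under quantile normalization. The other macrophage markers ranged from a log2 ratio of -0.94 for Fcgr1 to 1.57 for Cd14, and the list median was 0.14, and -0.13 under quantile normalization. Retnla, a marker of alternative activation, read 7891 in medium, 8627 after LPS, 59.4 on Trib1 #1 and 1693 on Trib1 #2, a further difference between the pair and the Trib1-line arrays.

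**Figure D5:**
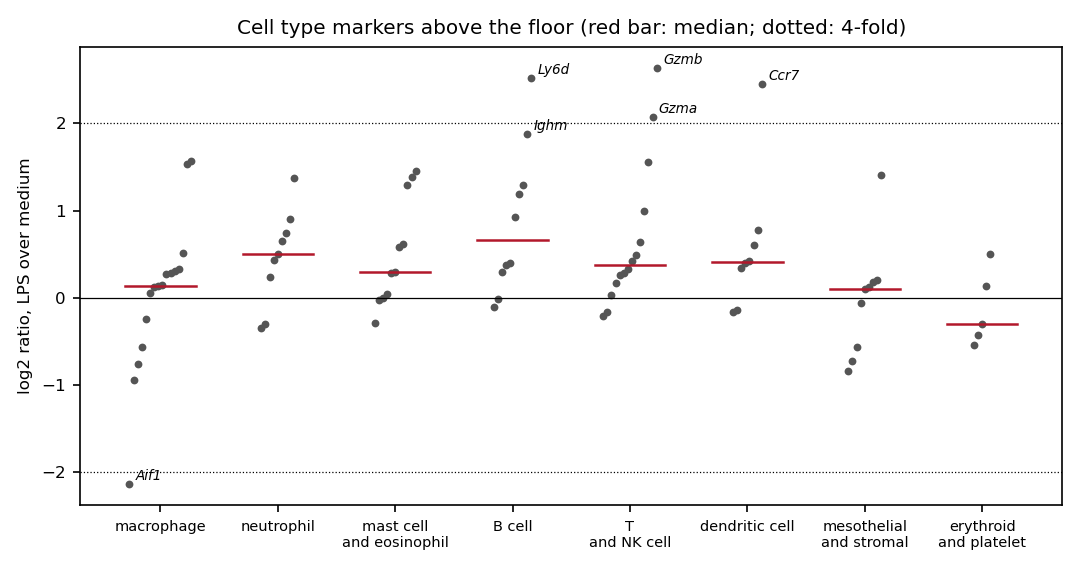
Log2 ratio of LPS over medium for members above the floor of 8 cell type marker lists, 1 point per gene, with the median of each list as a red bar. Most points lie within 1 log2 unit of 0; Ly6d and Ighm stand out among B cell markers, Gzma and Gzmb among T and natural killer cell markers, and Aif1 is the lowest macrophage marker.

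Several of the largest changes belong to no list. Plagl1, a zinc finger factor, read 176 in medium, 5020.2 after LPS, 5.67 on Trib1 #1 and 11892 on Trib1 #2 (28.6-fold); its probe set is of a design (_x_at) that can bind related sequences, the other probe sets gave log2 ratios of -0.67 and 1.60, and the value is uncertain. Speer3, one of a family of near-identical copies, read 53.3 in medium, 1632 after LPS, 699 on Trib1 #1 and 915 on Trib1 #2 (at least 25.5-fold) with a probe set of the same design and is uncertain for the same reason. U90926, a transcript named by its sequence record, read 13.8 in medium, 1245 after LPS, 26.2 on Trib1 #1 and 186 on Trib1 #2 (at least 19.5-fold), high on the LPS array of the pair. Mir155hg, the host transcript of the microRNA miR-155, read 387 in medium, 5131 after LPS, 2377 on Trib1 #1 and 1998 on Trib1 #2 (13.3-fold) and recurred; it was picked after its value was seen.

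Among the falls, Hip1, a clathrin adaptor gene, read 1498 in medium, 178 after LPS, 201 on Trib1 #1 and 147 on Trib1 #2 (8.42-fold lower), and Tmem86a, a lysoplasmalogenase gene, read 3780.2 in medium, 484 after LPS, 682 on Trib1 #1 and 555 on Trib1 #2 (7.81-fold lower); both recurred. Hhex, a homeobox factor, went from 2248 to 305 (7.36-fold lower) with 626 and 785, Palm, which encodes paralemmin, from 859.7 to 116 (7.43-fold lower) with 320.2 and 26.4, and Sectm1a from 566 to 62.0 (at least 8.86-fold lower) with 149.9 and 121. All LPS readings of these 3 were below medium. Named after their values were seen, the remaining recurring falls were Otulinl, Pag1, Cnr2, Eps8, Gpr65, Tgfbi, Cerk, H6pd, Myh10, Vdr, Pdgfc, Dna2, Nrp1, Tcf7l2, Gpr160, Rapgef6, Fam102a, Nfic, Slc43a2, Ntn4, Asb4 and Mtss1. Nrp1, a co-receptor of semaphorins and VEGF, read 7058 in medium, 1549 after LPS, 589.5 on Trib1 #1 and 929 on Trib1 #2 (4.56-fold lower). The remaining recurring rises, also named after their values were seen, were Ppfia3, Sdc4, Gpr84, Snrpd3, Car13, Vcan, Eva1b, Pilra, Src, Plpp3, Ak4, Lancl2, 2500002B13Rik, Exoc3l4, Glipr2, Lztfl1, Tmtc2, Ces5a, Ubxn2a, Fabp3, Slc44a1, Timeless and Marcksl1. Of these, Sdc4, a heparan sulphate proteoglycan gene, read 3114 in medium, 28997 after LPS, 28857 on Trib1 #1 and 30613 on Trib1 #2 (9.31-fold), and Gpr84, a receptor for medium-chain fatty acids, read 964 in medium, 8831 after LPS, 9786 on Trib1 #1 and 16784 on Trib1 #2 (9.16-fold).

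Where a called gene had several probe sets above the floor, these could be compared within the same RNA. Of 69 such induced genes all probe sets lay on the same side of medium in 63 (91.3%) and all passed 4-fold in 32. Of 45 repressed genes the counts were 41 (91.1%) and 11. These counts include the probe set that made the call and leave out those under the floor on both arrays, which favours agreement. The share for uncalled genes was not computed, so the counts do not bear out the calls. Among named genes, a dim Cd80 probe set, at 70.3 in medium and 62.8 after LPS, had a log2 ratio of -0.14 against 2.61 for the one reported. The other Cd80 probe sets rose 5.97-fold and 4.19-fold, both recurring. Probe sets of a gene read the same RNA sample and are not replicates.

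A fit with limma set the medium array against the LPS array of the pair and the 2 Trib1-line arrays labelled wild type, taking the spread from the LPS arrays and assuming that the lone medium array varies like them. Over the 33134 probe sets that exceeded the floor somewhere among these 4 arrays it called 0 higher and 0 lower at an adjusted p under 0.05 (smallest 0.192), with 1028 higher and 2029 lower at an unadjusted p under 0.05. In that fit 850 probe sets were under the floor on all 3 LPS arrays and so had no spread at all, and the prior degrees of freedom were 1.29. Asking instead that 2 or more of these arrays exceed the floor, a choice made after seeing the data, left 28430 probe sets, of which 45 were higher (0.158%) and 3 lower (0.0106%), all 48 at least 4-fold from medium on all 3 LPS arrays. Taking log2 of the value plus 32 with no floor, also chosen after seeing the data, gave 157 higher and 44 lower, which are 0.474% and 0.133%, and all 48 probe sets of the other fit were among them. These calls rest on 1 medium array, on LPS arrays that differ in line and in sex-linked transcripts, and on those later choices, so they are given as counts only and support no single gene.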

How the data were processed

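Per the labels, TRIzol was used to extract total RNA, and biotinylated cRNA made from it went onto Affymetrix arrays. Per the submitters' processing notes the authors deposited intensity values from MAS5; its version and scaling target are not given in the sources used here. The genes and lists described were chosen with earlier results of these data known.

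From the intensities, 64 control probe sets were left out of 45101, and each array was scaled to the medium array's 2% trimmed mean. Of 45037 probe sets 34945 had 1 gene symbol in the platform annotation, 932 several and 9160 none; a gene took the probe set of highest mean. Values were set to at least the floor (40th percentile, 63.9) and log2 ratios formed. Calls were at least 4-fold. The text names the 20 largest rises, the 15 largest falls, up to 4 called members of each list in each direction (the 2 of largest ratio where none was called), and the 15 genes of smallest p among those passing limma, which were none; other genes are given by ratio within their group or said to be picked after their values were seen. Alternatives were the floor, the fold, quantile and median scaling, log2 of the value plus 32, all probe sets of a gene, and leaving out arrays. Tools were Python 3.11.15, numpy 2.4.6, pandas 2.3.3, matplotlib 3.10.9, R 4.3.3 and limma 3.58.1; limma used lmFit and eBayes with Benjamini-Hochberg adjustment and was tested on simulated data. Promoter windows came from RefSeq (GRCm38.p6). Arrays number 1 a condition, which limits the precision.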

Additional observations from a re-analysis of the deposited data

Results flagged for a closer look

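For 13 called genes the LPS array of the pair lay on 1 side of medium and both Trib1-line LPS arrays labelled wild type on the other. In 2 of them, Crabp2 and Csf2, medium and both Trib1-line readings were under the floor, and the 11 with medium above the floor follow. The difference was not tested, since the pair has 1 array a condition and all ratios share the medium array. The Trib1 line has no medium array here, so its own response to LPS was not measured, and for Cish, Serpinb2, Flt1 and Lsr the reading on Trib1 #2 was close to medium. Serpinb2, which encodes an inhibitor of plasminogen activators, was 16.9-fold higher after LPS on the pair, at 1273 in medium and 21539.8 after LPS, but read 698 and 1218 on Trib1 #1 and Trib1 #2. Mmp13, which encodes a collagenase, was 7.74-fold higher after LPS on the pair, at 2361 in medium and 18264 after LPS, but read 1158 and 1610.0 on Trib1 #1 and Trib1 #2. Cish, which encodes a SOCS-family inhibitor, was 5.59-fold higher after LPS on the pair, at 787 in medium and 4397 after LPS, but read 635 and 771 on Trib1 #1 and Trib1 #2. Flrt3, which encodes a cell adhesion protein, was 4.47-fold higher after LPS on the pair, at 219.6 in medium and 982 after LPS, but read 158 and 54.7 on Trib1 #1 and Trib1 #2. Another Flrt3 probe set, at a log2 ratio of 3.38, also had both Trib1-line arrays below medium. Rhob, which encodes a small GTPase, was 4.40-fold higher after LPS on the pair, at 5249 in medium and 23096 after LPS, but read 3117 and 3829 on Trib1 #1 and Trib1 #2. Gja1, which encodes the gap junction protein connexin 43, was 4.31-fold higher after LPS on the pair, at 336 in medium and 1446 after LPS, but read 318 and 180.0 on Trib1 #1 and Trib1 #2. Other Gja1 probe sets with log2 ratios of 2.50, 2.27 and 2.30 also had both Trib1-line arrays below medium. Those with log2 ratios of 1.10 and 1.66 had both above it. Phlda1, which encodes a pleckstrin homology-like protein, was 4.26-fold higher after LPS on the pair, at 1537 in medium and 6544 after LPS, but read 563 and 1232 on Trib1 #1 and Trib1 #2.

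The falls were 4 genes. Flt1, which encodes a VEGF receptor, was at least 4.04-fold lower after LPS on the pair, at 258 in medium and 48.1 after LPS, but read 389.7 and 264 on Trib1 #1 and Trib1 #2. Other Flt1 probe sets had log2 ratios of -1.17 and -0.24. The former read 284 in medium and 214 and 220 on Trib1 #1 and Trib1 #2, so both lay below medium. Lsr, which encodes the lipolysis-stimulated lipoprotein receptor, was at least 4.23-fold lower after LPS on the pair, at 270.3 in medium and 28.4 after LPS, but read 479.7 and 273 on Trib1 #1 and Trib1 #2. Aif1, which encodes the macrophage protein IBA1, was 4.40-fold lower after LPS on the pair, at 1372 in medium and 312 after LPS, but read 2249.5 and 3054 on Trib1 #1 and Trib1 #2. Tmem129, which encodes a ubiquitin ligase of the endoplasmic reticulum, was 5.6-fold lower after LPS on the pair, at 383 in medium and 68.3 after LPS, but read 516 and 439.8 on Trib1 #1 and Trib1 #2. Another Tmem129 probe set had a log2 ratio of -0.54. It read 321 in medium and 298 and 307 on Trib1 #1 and Trib1 #2, so both lay below medium. The lines also differ in sex-linked transcripts and B cell markers, whose part in these differences was not tested.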

How the results depend on the processing

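With 1 array a condition, the fold and floor rules set the counts. The 287 induced and 174 repressed probe sets became 501 and 465 with the floor at the 25th percentile, 1461 and 1832 at 2-fold, 82 and 17 at 8-fold and 166 and 92 with 1 probe set a gene, and a floor at the 60th percentile left 85 repressed. The 128 induced and 65 repressed probe sets that recurred became 566 and 633 at 2-fold, 34 and 4 at 8-fold and 62 and 36 with 1 probe set a gene, and the repressed count was 106 and 43 with the lower and the higher floor. With Trib1 #2 in place of the LPS array of the pair 447 probe sets were induced and 489 repressed, and with Trib1 #1 370 were repressed. Counting recurrence on 1 Trib1-line array, with the other left out, gave 145 to 172 induced and 82 (without Trib1 #2) to 103 (without Trib1 #1) repressed. Quantile normalization gave 292 and 130, a common median 312 and 174, and log2 of the value plus 32 279 and 190.

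In limma, the planned fit called 0 and 0, as did the fits without a trend, under quantile normalization and without each LPS array in turn; no filter gave 34 higher and 925 lower, asking that 2 or more of the 4 arrays exceed the floor 45 and 3, and log2 of the value plus 32 157 and 44. The last 2 were chosen after seeing the data, and the cause of the spread between these counts was not tested beyond the 850 probe sets without spread given above. Of 710 values of the 142 named genes under 5 settings, each by the probe set taken for the gene, 679 kept their call or lack of one. The other 31 gained or lost a call. A turn of sign was counted only for the 104 called genes, which lay at least 4-fold from medium to begin with, and 0 turned. It was not counted for uncalled genes. Quantile normalization ended the calls of Aif1, Cd40, Clec4e, F10, Ltb4r1, Mmp14, P2ry12, Rhob, Slamf7, Vcam1 and Vegfa; the higher floor ended those of Csf2, Csf3, Gzma, Gzmb, Havcr2, Il10, P2ry12, Pparg, Sectm1a and Vegfa. Adding 32 ended those of Csf3, Gzma, Havcr2, Il10, P2ry12, Rab11fip1 and Vegfa. Of the 62 lists, 45 had a median above that of all genes, and 35 under quantile normalization. No paired analysis was possible because the pair has 1 array a condition and the numbers in the labels join a wild type and a knockout, which were not compared. Signal near the floor limits what can be read of dim genes.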
